A study of Rattus norvegicus with 5 samples.

Results

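The standard proteasome genes were taken as every gene whose array annotation symbol begins with Psma, Psmb, Psmc, Psmd, Psme, Psmf or Psmg, leaving out the interferon-induced subunits Psmb8, Psmb9 and Psmb10 and the activator genes Psme1 and Psme2. The rule gave 44 of the 14871 named genes on the array, and all 44 had enough values to be tested. Of these, 42 encode subunits, regulators or assembly factors of the proteasome. The other 2 share only the prefix: Psmc3ip encodes a factor of meiotic recombination, and Psme3ip1 a protein that binds the activator encoded by Psme3. Psma3l is listed apart from Psma3 in the annotation, although the RefSeq gene table holds that name as a synonym of Psma3. Psmd14 and Psmg3 were not analysed here.

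The proteasome is the protease that degrades proteins tagged with ubiquitin. Its 20S core is a barrel of outer alpha rings, which gate the entrance, and inner beta rings, which hold the catalytic subunits encoded by Psmb5, Psmb6 and Psmb7. The 19S cap recognises ubiquitin, unfolds the substrate with a ring of ATPases (Psmc genes) and feeds it into the core, while other activators and an inhibitor can bind the core in place of the cap. Interferon gamma can induce 3 replacement catalytic subunits, which form the immunoproteasome, and the activator PA28 alpha and beta. These change the peptides offered to T cells. The standard subunits are made in nearly all cells.

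The samples were mononuclear leukocytes flushed from the blood vessels of transplanted rat kidneys and freed of most granulocytes and red cells on a Percoll density gradient. In allografts, kidneys of male F344 rats (RT1lv1) had been placed in LEW rats (RT1l), a pairing with a minor class I mismatch, and in isografts LEW kidneys had been placed in LEW rats. Recipients had lost both of their own kidneys, received ampicillin and no immunosuppression, and donors had received heparin; recipients that died in the first days were left out. Each of 5 dual-colour arrays set an allograft sample against an isograft sample, and the allograft carried Cy5 on replicates 1, 3 and 5 but Cy3 on the other 2. Replicates are labelled as biological; whether animals were pooled, and on which day cells were taken, is not stated, so p-values measure the spread between these 5 arrays.

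Values are log2 ratios with the allograft in the numerator, and ± gives the SE from limma, over 5 arrays where no other n is stated. That direction is only likely: it rests on the titles and the design text, and the log base is an assumption. The names of genes depend on an order of the table's lines that was worked out from the values. Averaged over the arrays, probes of a shared accession correlated at 0.452 in that order, and at 0.0057 with the row numbers as given. On single arrays the correlation in that order ran from 0.129 on replicate 4 to 0.521 on replicate 3. Ratios give no level of a transcript, so markers could not show which cells were present. Fewer cells of a type and less RNA per cell cannot be told apart in such bulk samples. Replicates 1 and 4 were the least alike over named genes (r = -0.014) and replicates 1 and 5 the most alike (r = 0.641). Of 13 leukocyte markers 4 passed, all higher in allografts: Cd3e, Cd14, Aif1 and Nkg7. The B cell markers Cd79b and Ms4a1 stood at -1.11 and -0.85 and the natural killer cell marker Ncr1 at -0.61 (adjusted p = 0.0561, 0.0959 and 0.211).

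Standard proteasome transcripts lay slightly above 0 as a group, and a single gene passed the test. The median log2 ratio of the 44 genes was 0.25 (1.19-fold), against -0.01 for the 14332 named genes tested, and 38 of the 44 were above 0, against 48.8% of named genes. Psmb2, a structural subunit of the beta ring, rose 1.81-fold, and no gene fell. A call here means an adjusted p below 0.05 in limma with Benjamini-Hochberg adjustment over all 33649 genes and unnamed probes. By that rule 1.03% of named genes were called higher and 0.691% lower, 1.72% in all (1.33% of all genes and unnamed probes, 0.746% higher and 0.580% lower), and 1 call among 44 is close to these shares. At an unadjusted p below 0.05, 15 of the 44 (34.1%) were higher and 0 were lower, beside 7.51% of named genes in each direction. Ratios were above 0 on all 5 arrays for 18 of the 44 genes (40.9%), beside 10.1% of named genes. Psmd5 alone of the 44 was below 0 on all 5, beside 9.05% of named genes. This holds for its 3 probes averaged, and its RefSeq probe was above 0 on all 5.

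**Figure D1:**
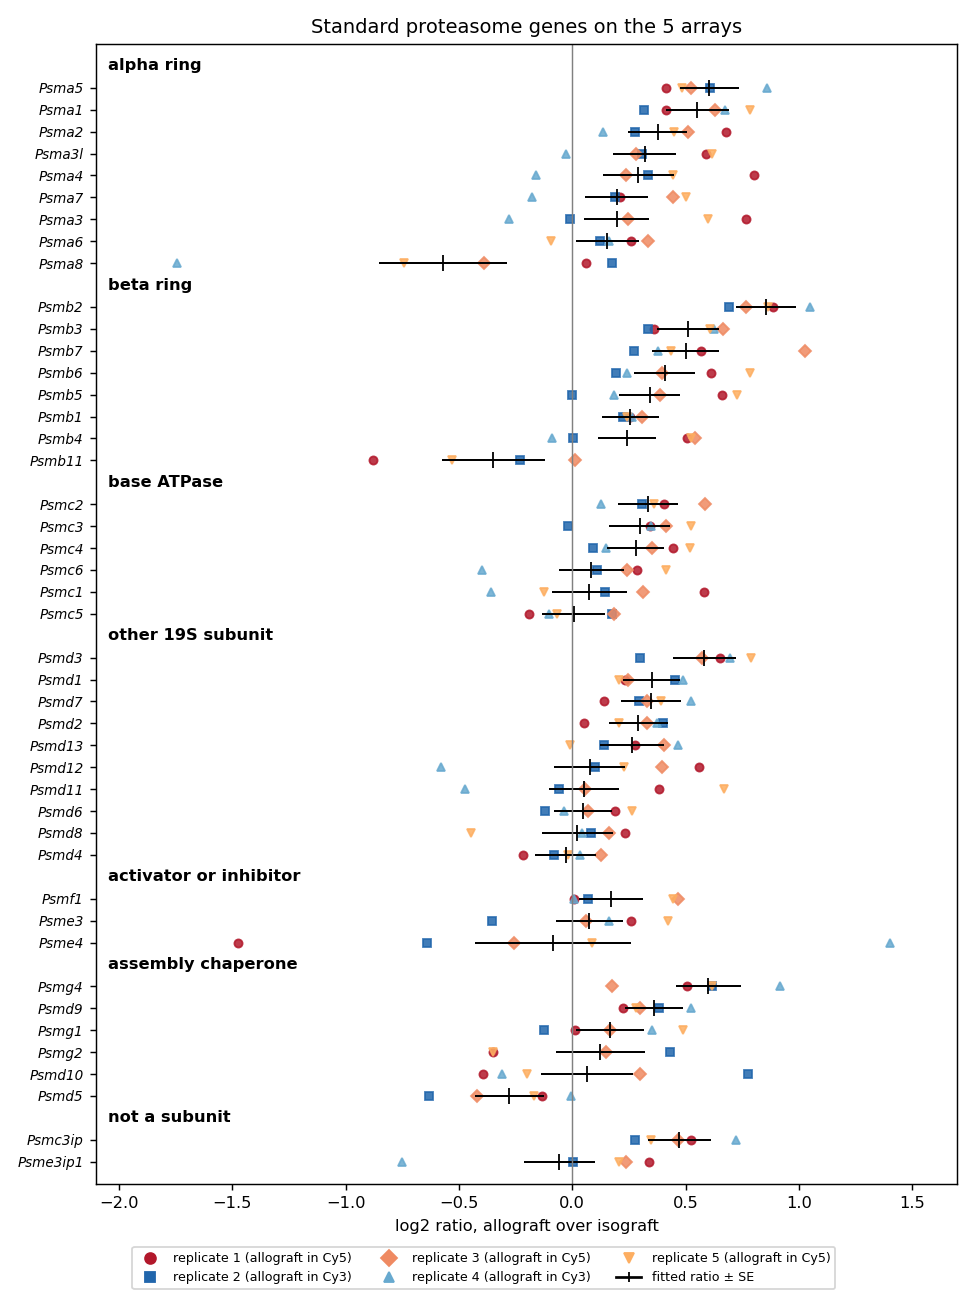
Log2 ratio, allograft over isograft, of each of the 44 genes on each array (coloured symbols, 1 per replicate) with the fitted ratio ± SE (black), grouped by role. Most genes of the rings and caps lie between 0 and 0.60, Psmb2 lies highest at 0.85, and Psma8 and Psmb11 lie lowest.

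**Figure D2:**
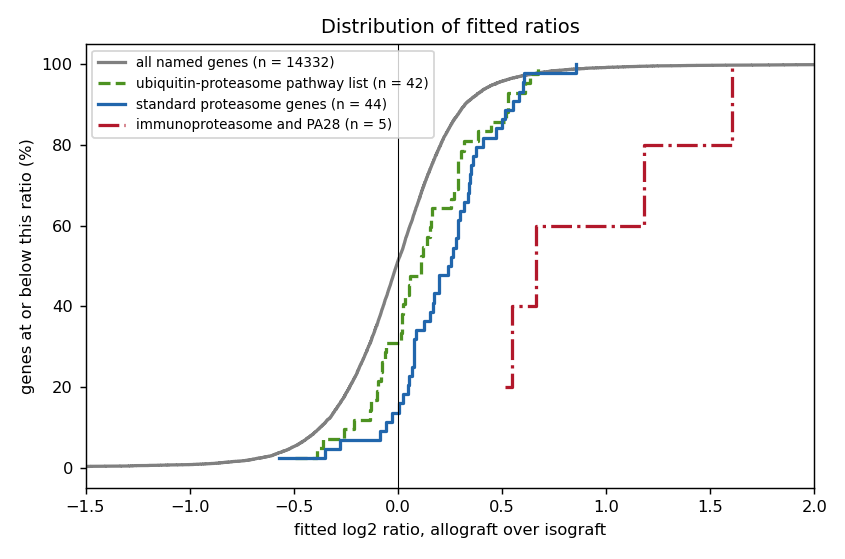
Cumulative share (%) of genes at or below each fitted log2 ratio, for all named genes, the standard proteasome genes, the ubiquitin-proteasome pathway list and the immunoproteasome with PA28. At the middle of the vertical axis the standard genes lie at 0.25, to the right of all named genes at -0.01 and to the left of the 5 interferon-induced genes at 0.66; at the top the curves of standard and all named genes cross.

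The group's median differed between arrays. It was 0.31 on replicate 1, 0.18 on replicate 2, 0.31 on replicate 3, 0.16 on replicate 4 and 0.40 on replicate 5. The lower values were those of the 2 arrays with the allograft in Cy3, and all 5 were above the median of named genes, which ran from -0.02 to 0.02. On replicates 1, 2, 3, 4 and 5, 37, 33, 41, 27 and 33 of the genes were above 0, of 42 measured on replicate 4 and 44 on the others. The fitted dye effect was above 0 for 28 of the 44 genes, beside 7844 of the 14332 named genes tested. It had an unadjusted p below 0.05 (limma) for none of the 44, beside 8.86% of named genes. The 15 genes of the 20S core (Psma1 to Psma7 with Psma3l, and Psmb1 to Psmb7) had a median of 0.34 and were all above 0. The dye effect was above 0 for 13 of these 15. The 16 subunits of the 19S cap had a median of 0.17, with 15 above 0 and a dye effect above 0 for 9. With RefSeq mRNA probes only, a choice made after the values were seen, the medians were 0.46 for 14 core genes and 0.33 for the 16 cap genes.

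**Figure D3:**
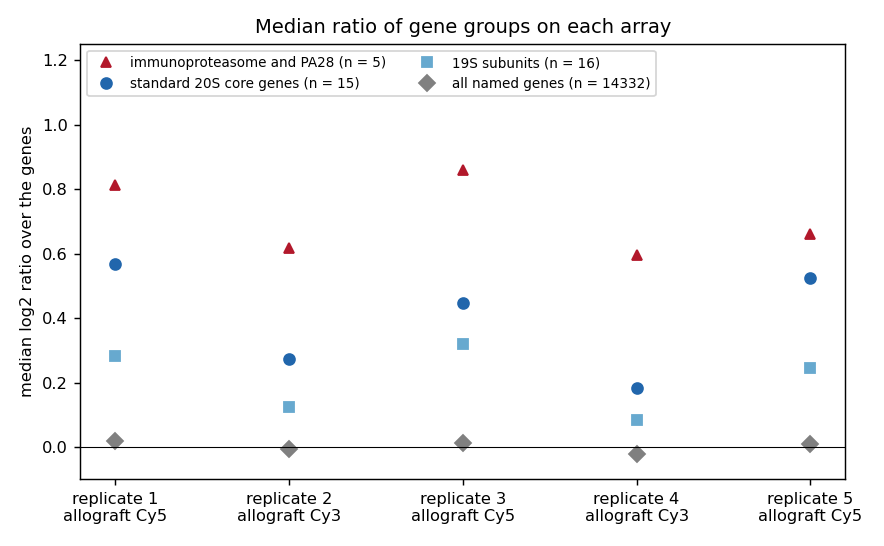
Median log2 ratio (vertical axis) of 4 gene groups on each array (horizontal axis, with the allograft's dye). On every array the immunoproteasome with PA28 lies highest, then the standard 20S core, then the 19S subunits, then all named genes; for the core and the 19S the medians run from 0.18 to 0.57 and from 0.09 to 0.32.

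In the beta ring, 7 of 8 genes were above 0 and 5 were above 0 on all 5 arrays. Psmb2 stood at 0.88, 0.69, 0.77, 1.05 and 0.86 on replicates 1 to 5. Every array lay at or above 0.69, and neither dye orientation stood apart. The fit gave 0.85 ± 0.13 (adjusted p = 0.0390, limma), rank 170 of the named genes tested. The call was lost when any single array was left out (adjusted p from 0.0871 without replicate 2 to 0.227 without replicate 4) and with arrays scaled to a common spread (0.0534), at ratios of 0.77 to 0.94.

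The sequences before the starts of Psmb2, of Psma5, the second highest member with probes averaged, and of the catalytic genes Psmb5, Psmb6 and Psmb7 are shown because these genes carry the values described here. They are the 250 bases before 1 RefSeq start per gene (GRCr8), with capitals marking CCAAT and TGACNNNGC on either strand. These are the CCAAT box bound by NF-Y and the antioxidant response element bound by NFE2L1 and NFE2L2, which drive proteasome genes in other mammals. That start can lie inside the gene's span. For Psmb6 the span begins at 55737852, so the end of its stretch, with TGACGGAGC, lies within the gene. The last bases of the Psma5 stretch do too. Among the other genes searched, the stretches of Psma6, Psmb1, Psmd3, Psmd5, Psmd11 and Psme2 lie wholly inside the gene's span. Those of Psma3, Psmb8, Psmb9, Psmc3ip, Psmc4, Psmd4, Psmd9, Psme1, Psme3ip1 and Psmg4 reach into it in part. Psmb2 lies at chr5:144254808-144255057 (+), Psma5 at chr2:198584255-198584504 (+), Psmb5 at chr15:32047380-32047629 (-), Psmb6 at chr10:55737638-55737887 (+) and Psmb7 at chr3:42827471-42827720 (-).
Psmb2: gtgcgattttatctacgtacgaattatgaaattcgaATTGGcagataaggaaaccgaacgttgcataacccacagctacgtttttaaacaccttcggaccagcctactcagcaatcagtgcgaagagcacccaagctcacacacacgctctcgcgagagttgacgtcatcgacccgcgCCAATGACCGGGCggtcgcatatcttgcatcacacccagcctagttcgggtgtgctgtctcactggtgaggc
Psma5: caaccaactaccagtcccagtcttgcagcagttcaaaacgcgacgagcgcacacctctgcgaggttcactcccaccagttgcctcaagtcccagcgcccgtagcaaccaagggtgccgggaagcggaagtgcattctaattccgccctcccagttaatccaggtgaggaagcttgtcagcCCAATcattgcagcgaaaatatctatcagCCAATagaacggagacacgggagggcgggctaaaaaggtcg
Psmb5: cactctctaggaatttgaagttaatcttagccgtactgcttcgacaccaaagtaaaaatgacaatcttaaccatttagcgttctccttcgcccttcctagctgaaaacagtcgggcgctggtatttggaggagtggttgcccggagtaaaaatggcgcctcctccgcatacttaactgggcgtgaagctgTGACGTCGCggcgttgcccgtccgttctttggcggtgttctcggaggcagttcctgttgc
Psmb6: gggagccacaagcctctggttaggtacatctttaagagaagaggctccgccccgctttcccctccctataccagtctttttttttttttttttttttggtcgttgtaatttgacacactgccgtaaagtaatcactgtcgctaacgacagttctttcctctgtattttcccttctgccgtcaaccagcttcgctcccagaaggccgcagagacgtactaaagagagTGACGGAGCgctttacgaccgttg
Psmb7: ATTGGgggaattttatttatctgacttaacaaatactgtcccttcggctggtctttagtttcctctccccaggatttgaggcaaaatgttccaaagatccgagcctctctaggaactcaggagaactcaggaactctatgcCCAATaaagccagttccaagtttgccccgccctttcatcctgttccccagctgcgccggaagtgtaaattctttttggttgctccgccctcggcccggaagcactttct

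In Psmb2 a CCAAT box and the element TGACCGGGC overlap, and a further CCAAT box stands on the opposite strand. Psma5 and Psmb7 hold 2 CCAAT boxes each and no match to TGACNNNGC, while Psmb5 and Psmb6 hold 1 match each, TGACGTCGC and TGACGGAGC. A sequence was given for 39 of the 44 genes, all but Psma3l, Psma7, Psmb11, Psmd6 and Psmd12. TGACNNNGC was found in 7 of the 39 (17.9%) and in 10.5% of 21842 protein-coding promoters of the same length, and CCAAT in 20 (51.3%) and 35.0%. Of the interferon-linked motifs, the core of the interferon-stimulated response element was found in 3 of the 39 (7.69%, against 3.27%), in Psma4, Psmb3 and Psmd7, and TTCNNNGAA (gamma-activated site core) in 3 (7.69%, against 7.29%), in Psmc6, Psmd3 and Psmd7. In the 5 interferon-induced genes the first of these was found in 2, Psmb10 and Psme2. These are matches of letters, searched on both strands, and some lie inside a gene's span, as those of Psmd3 do.

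The standard catalytic subunits lay between 0.34 and 0.50 and did not pass. Psmb7, the trypsin-like subunit, stood at 0.57, 0.27, 1.03, 0.38 and 0.44 (fit 0.50 ± 0.15, adjusted p = 0.188). Psmb6, the caspase-like subunit, stood at 0.61, 0.20, 0.39, 0.24 and 0.79 (fit 0.41 ± 0.13, adjusted p = 0.241). Both were above 0 on every array, and Psmb6 was lower on the 2 arrays with the allograft in Cy3 than on the other 3. Psmb5, the chymotrypsin-like subunit and the main target of bortezomib, stood at 0.66, -0.0031, 0.39, 0.18 and 0.73 (fit 0.34 ± 0.14, adjusted p = 0.340). With its 2 probes averaged, the Cy3 arrays were likewise the lowest, with replicate 2 at -0.0031. The RefSeq probe of Psmb5 alone read 0.19, 0.28, 0.60, 0.44 and 0.33, above 0 throughout and lowest on replicate 1. Its other probe read 1.13, -0.29, 0.17, -0.07 and 1.13.

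Among the structural beta subunits, Psmb1 was the most even, at 0.26, 0.23, 0.31, 0.26 and 0.24 (fit 0.26 ± 0.13, adjusted p = 0.461). Its 5 values span less than the SE, which borrows its spread from all genes. Psmb3 reached 0.51 ± 0.14 and Psmb4 0.24 ± 0.13 (adjusted p = 0.149 and 0.488). Psmb4 was near 0.50 on the 3 arrays with the allograft in Cy5 and near 0 on the other 2. Psmb11, the catalytic subunit of the thymus cortex, was the lowest of the ring, at -0.88, -0.23, 0.011 and -0.53 on replicates 1, 2, 3 and 5, with no value on replicate 4 (fit -0.35 ± 0.23, n = 4, adjusted p = 0.586).

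The alpha ring showed a like order, with the tissue-restricted gene lowest. Psma5 stood at 0.42, 0.61, 0.52, 0.86 and 0.48 (fit 0.60 ± 0.13, adjusted p = 0.0849) and was above 0 on every array. Psma1 (0.55 ± 0.14, adjusted p = 0.132) and Psma2 (0.38 ± 0.13, adjusted p = 0.264) were also above 0 on every array. With probes averaged, Psma3, Psma4, Psma6, Psma7 and Psma3l ran from 0.16 to 0.32, each with at least 1 array below 0. With RefSeq probes only, Psma4 (0.65), Psma6 (0.30) and Psma7 (0.41) were above 0 on all 5 arrays, and Psma3 (0.20) on 3. Psma8, the alpha subunit of male germ cells, stood at 0.059, 0.18, -0.39, -1.74 and -0.74 (fit -0.57 ± 0.28, adjusted p = 0.468). Its arrays spanned both sides of 0.

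All 6 ATPase genes of the 19S base were above 0 and none passed (1 at an unadjusted p below 0.05, limma). With probes averaged Psmc2 was highest, at 0.41, 0.31, 0.59, 0.13 and 0.36 (fit 0.33 ± 0.13, adjusted p = 0.333). Psmc5 was lowest, at -0.19, 0.18, 0.19, -0.10 and -0.07 (fit 0.0059 ± 0.14, adjusted p = 0.989). Psmc2 was above 0 on all arrays, while Psmc5 lay on both sides of 0. Psmc3, Psmc4, Psmc6 and Psmc1 lay between, at 0.30, 0.28, 0.08 and 0.08. With RefSeq probes only, Psmc1 (0.44) and Psmc6 (0.41) were above Psmc2 (0.33).

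Of the 10 other 19S subunits 9 were above 0, and 4 were so on all arrays: Psmd1, Psmd2, Psmd3 and Psmd7. Psmd3, a scaffold subunit of the lid, stood at 0.65, 0.30, 0.57, 0.69 and 0.79 (fit 0.58 ± 0.14, adjusted p = 0.109). The large scaffold subunits of the base, Psmd1 and Psmd2, reached 0.35 ± 0.13 and 0.29 ± 0.13, and Psmd7, the partner of the cap's deubiquitinase, 0.35 ± 0.13 (adjusted p from 0.285 to 0.410). Psmd3 was thus the highest of the cap, and its 5 arrays overlapped with those of Psmd1 and Psmd7. Psmd4, the ubiquitin receptor also called Rpn10, was lowest, at -0.22, -0.08, 0.13, 0.03 and -0.02 (fit -0.03 ± 0.13, adjusted p = 0.942). Its values lay on both sides of 0.

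The activators and the inhibitor did not differ from 0 beyond their spread. Psmf1, which encodes the inhibitor PI31, stood at 0.0072, 0.07, 0.47, 0.0072 and 0.44 (fit 0.17 ± 0.14, adjusted p = 0.657). Psme3, which encodes the nuclear activator PA28 gamma, stood at 0.26, -0.35, 0.06, 0.16 and 0.42 (fit 0.08 ± 0.15, adjusted p = 0.857). Psme4, which encodes the activator PA200, stood at -1.47, -0.64, -0.26, 1.40 and 0.09 (fit -0.08 ± 0.34, adjusted p = 0.935). Psmf1 was close to 0 on 3 arrays, and Psme4 had the widest spread of the 3, with its single probe at opposite extremes on replicates 1 and 4. That probe of Psme4 is not listed under a RefSeq mRNA. The 95% interval of the Psme3 ratio, -0.27 to 0.43, and that of Psmf1, -0.16 to 0.51, hold the group's median of 0.25.

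Assembly factors were mixed. Psmg4, part of a chaperone pair that starts alpha ring assembly, stood at 0.51, 0.62, 0.17, 0.92 and 0.62 (fit 0.60 ± 0.14, adjusted p = 0.112), above 0 on every array. Psmd9, a chaperone of the 19S base, was also above 0 on every array (0.36 ± 0.13, adjusted p = 0.275). Psmg1 (0.17), Psmg2 (0.12, 4 arrays) and Psmd10 (0.07), the oncoprotein gankyrin, lay near 0. Psmg2 stood at -0.35, 0.43, 0.15 and -0.35 on replicates 1, 2, 3 and 5. Its fit above 0 depends on replicate 2, the only one of these with the allograft in Cy3. Psmd5, another chaperone of the base, stood at -0.13, -0.63, -0.42, -0.0043 and -0.17 (fit -0.28 ± 0.15, adjusted p = 0.508). With its 3 probes averaged it was below 0 throughout, though its RefSeq probe gave 0.22 and was above 0 on all 5 arrays. Outside the proteasome proper, Psmc3ip stood at 0.52, 0.28, 0.46, 0.72 and 0.35 (fit 0.47 ± 0.14, adjusted p = 0.188), above 0 on every array. Psme3ip1 stood at 0.34, 0.0022, 0.24, -0.75 and 0.20 (fit -0.06 ± 0.16, adjusted p = 0.901), with replicate 4 apart from the rest.

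Several low ratios came from averaging unlike probes. The 44 genes had 72 probes, of which 70 could be tested singly: 49 listed under a RefSeq mRNA and 21 under another accession, mostly expressed sequence tags (ESTs). The RefSeq probes had a median ratio of 0.33, and 32 of 49 were above 0 on all 5 arrays, beside 12.7% of RefSeq probes of all named genes. The other probes had a median of -0.06, and 0 of 21 were above 0 on all 5 arrays, beside 3.69%. The median SD between arrays was 0.195 for the first kind and 0.583 for the second, and 0.362 and 0.471 over all named genes. In 11 of the 13 genes with both kinds the RefSeq probes were higher, by a median of 0.48 over the 13, while over the 3310 named genes with both kinds they were higher in 57.2%, by a median of 0.06. This split was made after the values had been seen.

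**Figure D4:**
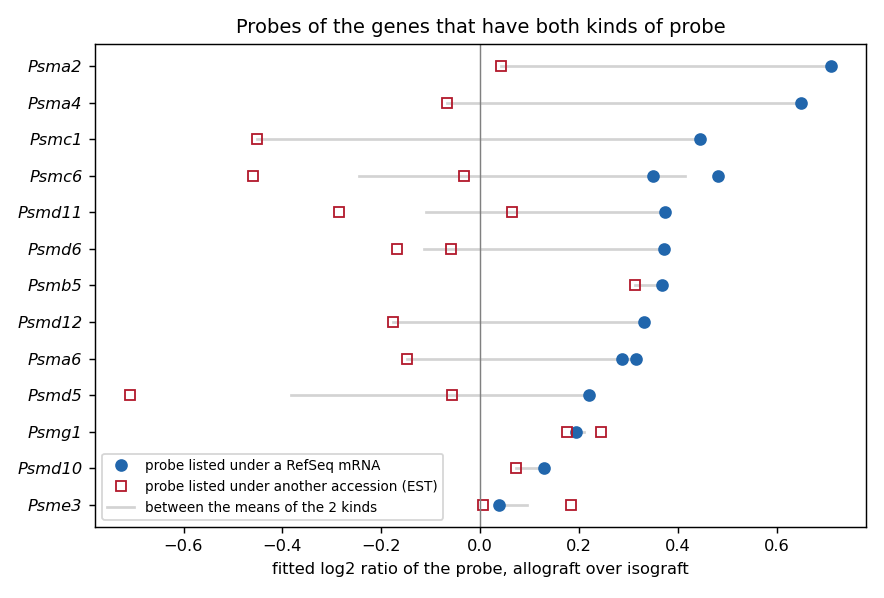
Fitted log2 ratio (horizontal axis) of each tested probe of the 13 standard proteasome genes that have both a RefSeq probe (filled circles) and a probe of another accession (open squares). The RefSeq probes all lie above 0, and every gene except Psmb5 and Psmg1 has a square at or below 0.10.

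For Psma2 the RefSeq probe read 0.48, 0.53, 0.89, 0.87 and 0.78, and the EST probe 0.87, 0.02, 0.12, -0.59 and 0.11. The RefSeq probe of Psma4 read 0.49, 0.64, 0.46, 0.98 and 0.51, and its EST probe 1.11, 0.03, 0.01, -1.30 and 0.38. The RefSeq probes were above 0 throughout, while the EST probes changed sign or came close to 0. With RefSeq probes only, 42 genes could be tested, 38 were above 0, the median was 0.33, and 28 (66.7%) were above 0 on all arrays beside 12.5% of named genes. Psmb2 was still the 1 call (2.37% of named genes were called), and Psma2 and Psma4 came nearest, at 0.71 ± 0.14 and 0.65 ± 0.13 (adjusted p = 0.0668 and 0.0709, limma). Psma2 and Psma4 were then above Psma5 in the alpha ring, at 0.60. The ratio of the lid subunit Psmd6 moved from 0.05 to 0.37. RefSeq lists 40 pseudogenes named after 16 of the 44 genes, 7 of them after Psmb3 and 5 after Psma6. Such copies can hybridise to a gene's probe, so ratios of these single genes are uncertain. Whether any copy did so here was not tested.

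The choice of probes also decided how the standard catalytic subunits compared with the interferon-induced subunits that take their places. Psmb9, which replaces Psmb6, rose by 1.61 ± 0.14 (adjusted p = 0.00665) and the PA28 gene Psme2 by 1.18 ± 0.14 (adjusted p = 0.0156, limma). The other PA28 gene, Psme1, stood at 0.66 ± 0.13 and did not pass (adjusted p = 0.0632, limma). Psmb9 lost its call without replicate 4 (adjusted p = 0.0510) and with scaled arrays (0.0535), and Psme2 with scaled arrays (0.0621) and without replicate 1, 3, 4 or 5 (0.0726 to 0.109). On single arrays Psmb9 exceeded Psmb6 by 1.19, 1.09, 1.48, 1.43 and 0.73 (mean 1.19 ± 0.30, SD). It was higher on 5 of 5 arrays, yet a two-sided exact sign-flip test over 5 arrays cannot go below 0.0625, which is the value it gave (0.188 adjusted over the 3 pairs). Psmb10 minus its standard counterpart Psmb7 averaged 0.03 ± 0.18 (SD, exact p = 0.688), and Psmb8 minus Psmb5 0.18 ± 0.20 (exact p = 0.250). With RefSeq probes only, a choice made after the values were seen, these means were 0.54 ± 0.23 and 0.80 ± 0.18 (exact p = 0.0625 for each), above 0 on 5 of 5 arrays. The single EST probe of Psmb10 read -0.01 and its RefSeq probe 1.04, and the RefSeq probe of Psmb8 read 1.15 against 0.12 and 0.38 for its EST probes. In the fit with RefSeq probes both genes were called (adjusted p = 0.0150 for Psmb8 and 0.0168 for Psmb10, limma).

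**Figure D5:**
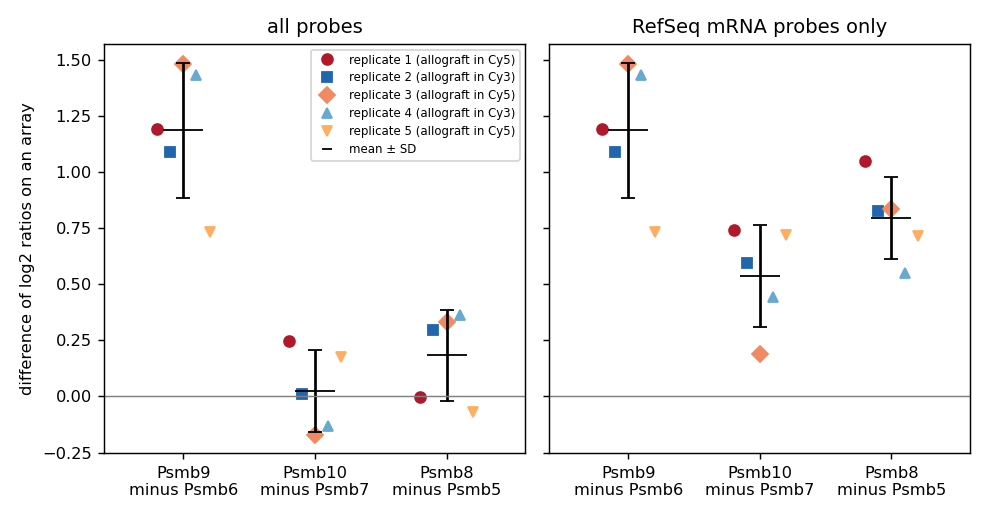
Difference of log2 ratios (vertical axis) between each interferon-induced catalytic subunit and the standard subunit it replaces, on each array (symbols) with mean ± SD (black), with all probes (left) and RefSeq probes only (right). Psmb9 minus Psmb6 is the same in both panels at 1.19, while the other pairs move from near 0 to 0.54 and 0.80.

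Genes that act around the proteasome were tested as a list of 52 symbols, of which 42 had values. None passed in limma, beside 1.72% of named genes. At an unadjusted p below 0.05, 8 (19.05%) were higher and 2 were lower, beside 7.51% of named genes in each direction. The median was 0.11, against -0.01 for named genes. Pomp, the maturation factor of the 20S core, was highest, at 0.66, 0.54, 0.64, 0.76 and 0.79 (fit 0.67 ± 0.13, adjusted p = 0.0650). It was above 0.50 on every array and passed when the dye term was left out (0.68, adjusted p = 0.0428). The chaperone Hspa8 (0.63), the ubiquitin conjugating enzyme Ube2n (0.61) and the ubiquitin activating enzyme Uba1 (0.53) followed, each above 0 on every array. Nfe2l2, which encodes the oxidative stress factor NRF2, stood at 0.53 ± 0.16 (adjusted p = 0.191). The 19S subunit Sem1 (0.29), the segregase Vcp (0.27), the cap-bound deubiquitinases Usp14 (0.11) and Uchl5 (0.01) and the ubiquitin receptor Adrm1, which docks Uchl5 (-0.26, 4 arrays), did not pass. Adrm1 stood at 0.57, 0.36, -0.89 and 0.19 on replicates 1, 3, 4 and 5. Its fit below 0 depends on replicate 4, the only one of these with the allograft in Cy3. Uba6, the second ubiquitin activating enzyme, was lowest, at -0.49 ± 0.19 (adjusted p = 0.319), and below 0 on every array. Nfe2l1 had no tested value.

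Other gene groups moved with the same contrast. All 18 cell cycle markers were above 0, with 6 called higher and medians of 0.63 to 1.11 on single arrays. None of 13 tested red cell markers was above 0, with 10 called lower and medians of -2.85 to -1.24, and of 7 platelet markers 5 were called lower. Of 10 endothelial markers 5 were above 0 and 1 was called lower, and of 11 kidney tubule and podocyte markers 4 were above 0 and 0 were called. Granulocyte markers, 4 of 10 above 0, gave 0 calls. The part of these groups in the proteasome ratios was not tested.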

How the data were processed

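The authors deposited log2 ratios, 1 value per spot and array, for 44290 spots; log base, background correction and normalization: not given in the sources used here. Values were present for 41033 to 43286 spots per array, array medians lay from -0.01 to 0.03, and precision is limited by there being 5 arrays, since spot intensities were not used here. Members and lists were chosen with earlier results of these data known. The row order was recovered as a layout of 103 rows by 430 columns, the best of 16 orders tried here. Probes with 1 gene (23535) were named from the platform annotation and updated by Entrez number through RefSeq (GRCr8; 23488 matched), and probes of a gene were averaged. The 407 spots whose ratio followed the dye (mean above 3, 0 of them on named probes) were left out. Rows with values on at least 4 arrays and in both dye orientations were fitted in limma 3.58.1 (R 4.3.3), with a graft and a dye effect and Benjamini-Hochberg adjustment over all rows. Members that passed, the catalytic subunits, the regulators and the highest and lowest of each role were given in full, and pathway genes that passed or were listed beforehand; Hspa8, Ube2n, Uba1, Uba6 and Nfe2l2 were added after their values were seen. Alternatives covered the dye term, scaling, quantile normalization, a local trend (window of 15 spots), filters, the variance model, probes, orientation and leaving out each array.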

Additional observations from a re-analysis of the deposited data

Results flagged for a closer look

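For 1 of the 44 genes, 1 array lay far from the other 4. Psmd8, a 19S lid subunit with a single probe, stood at -0.44 on replicate 5, against 0.05 to 0.23 on replicates 1 to 4. Chance marks about 1 in 20 groups of this size, and 58 sets of values were examined.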

How the results depend on the processing

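The median ratio of the standard proteasome genes stayed at 0.24 to 0.33 under all alternatives but 1: with replicates 2 and 4 turned, as if the columns held Cy5 over Cy3, it was 0.072, no gene or probe passed (0 of 33649, and 0 members called higher), and Psmb2 stood at -0.016. In that reading Psmb9 minus Psmb6 was 0.18 and Psmb8 minus Psmb5 -0.079. Over all genes and unnamed probes 446 passed (251 higher, 195 lower), against 733 with quantile normalization (379 higher), 0 without variance moderation (0 members; Psmb2 adjusted p = 0.159) and 64 to 147 with an array left out, where 0 members passed in each of the 5 fits. After the arrays were scaled to equal spread the number was 310 (97 higher), and 0 members passed. Psmb2 was called in 9 of 17 alternatives with 1 value per gene. Several of the 9, such as RefSeq probes only and the median of probes, left the ratio of its single probe at 0.85. Its call could change there only through other rows. Without the dye term 1 pathway gene, Pomp, passed. Psmb10 minus Psmb7 was -0.0068 with scaled arrays, -0.043 after a local trend was subtracted and -0.0297 to 0.0743 with an array left out. With RefSeq probes only it was 0.54, and Psmb8 minus Psmb5 0.80. Leaving out probes with missing values before averaging, also chosen after the data were seen, gave a median of 0.28 over 42 genes. The causes of these changes were not tested. Each ratio is already a paired difference within 1 array, so no replicate block was added. Signal over background is unknown, so weak spots could not be told from bright ones.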
